A study of Mus musculus with 16 samples.

Results

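Platelets carry chemokines, adhesive proteins and clotting factors in alpha granules that megakaryocytes fill before they shed platelets, and a coil of microtubules built from platelet-type tubulins keeps their disc shape. When a platelet is activated, the granules fuse with its surface, their cargo is released and membrane proteins of the granule, such as P-selectin, become exposed. Part of the hematopoietic stem cell (HSC) pool is known to carry RNA of such genes, as platelet-biased HSCs. The RNA of 10 genes of this kind is described here in HSCs sorted by MAC-1: the chemokines *Pf4* and *Ppbp*, the granule proteins *Clu*, *Thbs1* and *Mmrn1*, the granule membrane receptors *Selp* and *Treml1*, the tubulins *Tubb1* and *Tuba8*, and the lipid transporter *Mfsd2b*. They are 10 of the 46078 genes of the count table, found there by gene name. They were chosen from measured values of these samples, since *Pf4* and *Mfsd2b* are among the genes by which 4 week MAC-1- HSCs had been described, so that their differences among the 4 week populations, and of 4 week MAC-1- from SS MAC-1- HSCs, are a description without a test.

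MAC-1 is the integrin of CD11b (*Itgam*) and CD18 (*Itgb2*), and the levels of its transcripts serve as a check of the sort. All HSCs were live LSK SLAM cells (lineage-negative, cKit+, Sca1+, CD48-, CD150+) of WT mice of the strain B6.SJL, with no age stated. Steady state (SS) HSCs came from untreated mice and were sorted as MAC-1- and MAC-1low, 3 samples each. HSCs 4 weeks after transplantation came from recipients that were irradiated with 900 cGy and received 8000 LSK cells, and were sorted as MAC-1- (3 samples), MAC-1low (4 samples) and MAC-1+ (3 samples). Transplanted LSK cells include progenitors beside HSCs, and SS mice were not irradiated, so that time, irradiation and transplantation cannot be told apart between SS and 4 week HSCs. The labels do not say that samples of a population came from separate mice, and p-values then measure the spread between these samples only, which may be technical.

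SMART-Seq cDNA of few cells gave 13781278 to 28580658 counts per sample. CPM (counts scaled to the size of the sample) used edgeR's TMM factors over the 13661 genes left by its low-count filter. Of the 10 genes, 9 passed that filter and *Tubb1* did not. A gene was called where the edgeR quasi-likelihood test gave an adjusted p below 0.1 and the log2 fold change was above 1 in size. Where a sample had 0 counts, up to 3 counts are still possible, and this floor and the intervals below cover counting error only. In bulk RNA, fewer cells with a transcript and less of it per cell cannot be told apart. *Itgam* had a mean of 14.04 CPM ± 14.02 (SD, n = 3) in 4 week MAC-1+ and 0.594 ± 1.03 CPM (SD, n = 3) in 4 week MAC-1- HSCs, while *Itgb2* had the opposite order with 13.2 ± 4.07 and 26.8 ± 6.98 CPM (n = 3 each). All 8 HSC marker genes were found in every population, and their summed CPM ran from 690.5 to 890 in 4 week MAC-1- samples and from 2271 to 3457 in those that were 4 week MAC-1+. Of the 8 genes, 4 were called higher in 4 week MAC-1+ HSCs, *Ly6a*, *Procr*, *Hlf* and *Mecom*, beside 1.11% of all genes called higher. The list median log2 fold change was 2.17, with 1 of the 8 genes at a negative value. The 4 called genes had already been described as rising with MAC-1 in these samples, so that their calls are not a separate check. *Slamf1* was uneven, with 168, 2 and 3260 counts in 4 week MAC-1+ samples and 1093, 1951 and 1178 in 4 week MAC-1- samples.

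Between the same 2 populations, the marker sums of other blood cells were without overlap for 3 of 5 cell types and overlapped for the others, and most of them rested on few genes. The summed CPM of 9 neutrophil markers ran from 164 to 7330 in 4 week MAC-1+ samples and from 23.1 to 69.7 in 4 week MAC-1- samples, with *S100a8* at 98876 counts in 4 week MAC-1+ replicate 3 and at 1987 and 7403 in the other two. The summed CPM of 8 erythroblast markers, among which *Alas2* was at 0 in all samples, ran from 91.3 to 197.5 in 4 week MAC-1+ samples, against 11.96 to 25.99 in those that were 4 week MAC-1-. *Hbb-bt*, a beta globin gene, had 2013, 1435 and 1760 counts in the first and 183, 320 and 141 in the second. The sum over 6 T and NK cell markers ran from 16 to 176 in the first and from 323 to 644 in the second, and was nearly all *Nkg7*, since *Cd3e* and *Ncr1* were at 0 in all these samples. In the same order, 8 monocyte and macrophage markers summed to 458 to 611 and 352 to 584 CPM, and 6 B cell markers to 15.1 to 119 and 6.4 to 33.6 CPM, mostly from *Lyz2* and *Cd79b*. Their part in the values below was not tested.

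The chemokine genes *Ppbp* and *Pf4* lie side by side on chromosome 5 (GRCm38), *Ppbp* from 90768518 to 90770063 and *Pf4* from 90772435 to 90773383, both on the + strand, with 2371 bases and no annotated gene between them. *Selp* lies on chromosome 1 from 164115264 to 164150026 and *Mmrn1* on chromosome 6 from 60924976 to 60989378. The promoters of these 4 genes are shown because *Pf4* and *Ppbp* are neighbors with the same population on top, while *Selp* and *Mmrn1* had other orders of the populations. Each is 250 bases before to 50 bases after the RefSeq start (GRCm38.p6), with motif matches on either strand in capitals. The GATA motif was AGATAA, with TGATAA as its second form. The ETS motif was AGGAAG, with CGGAAG as its second form.
Pf4 promoter, chr5:90772185-90772484, + strand: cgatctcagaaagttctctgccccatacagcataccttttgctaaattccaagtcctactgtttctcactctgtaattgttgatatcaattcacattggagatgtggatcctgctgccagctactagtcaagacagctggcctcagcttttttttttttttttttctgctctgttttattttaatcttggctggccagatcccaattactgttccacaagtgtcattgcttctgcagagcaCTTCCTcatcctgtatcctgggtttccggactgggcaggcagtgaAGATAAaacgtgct
Ppbp promoter, chr5:90768268-90768567, + strand: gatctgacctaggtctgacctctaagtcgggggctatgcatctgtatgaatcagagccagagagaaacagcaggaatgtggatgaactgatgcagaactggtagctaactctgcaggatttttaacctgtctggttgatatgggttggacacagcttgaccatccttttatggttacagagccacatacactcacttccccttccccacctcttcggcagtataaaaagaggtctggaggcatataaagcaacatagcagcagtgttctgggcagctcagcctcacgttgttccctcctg
Selp promoter, chr1:164115014-164115313, + strand: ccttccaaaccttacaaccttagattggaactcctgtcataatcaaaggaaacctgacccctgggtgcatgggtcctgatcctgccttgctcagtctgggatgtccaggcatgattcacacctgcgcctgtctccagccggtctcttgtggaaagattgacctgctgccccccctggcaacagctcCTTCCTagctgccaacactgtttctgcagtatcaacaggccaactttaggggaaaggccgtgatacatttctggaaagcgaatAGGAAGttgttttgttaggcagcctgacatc
Mmrn1 promoter, chr6:60944067-60944366, + strand: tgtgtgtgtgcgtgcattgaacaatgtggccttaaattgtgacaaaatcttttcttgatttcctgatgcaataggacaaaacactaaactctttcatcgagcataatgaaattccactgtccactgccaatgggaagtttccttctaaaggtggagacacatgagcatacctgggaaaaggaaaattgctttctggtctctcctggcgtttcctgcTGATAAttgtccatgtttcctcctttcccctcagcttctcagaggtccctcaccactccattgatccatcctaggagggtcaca

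RefSeq promoters were found for 8 of the 10 genes. The *Pf4* window held a GATA match that began at position 37 after the start and an ETS match on the opposite strand. The *Mmrn1* window held a GATA match 34 bases before the start, and this RefSeq start lies inside the gene as GENCODE M21 draws it. *Selp* held 2 ETS matches, 1 on each strand, and *Ppbp* held neither motif but 2 TATAAA words on the coding strand, a letter match that 8.32% of 32851 mouse promoters also have. Over the 8 promoters, 2 held a GATA match and 4 an ETS match, against 18.6% and 46.5% of all 32851 promoters. No promoter of the 8 held TGTGGT (RUNX) or TGAGTCA (NF-E2 core) on either strand, which 16.8% and 5.2% of all promoters hold. These letters are a description of the windows, and the motifs overlap one another nowhere in them.

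*Pf4*, which encodes platelet factor 4, the most abundant chemokine of alpha granules, had the highest count of the 10 genes in 15 of the 16 samples. The 4 week MAC-1- samples had 101422, 124727 and 62537 counts of it, and those of 4 week MAC-1+ HSCs 2458, 1799 and 4041. The 4 week MAC-1low samples had 6619, 14784, 5953 and 21017 counts. Every 4 week MAC-1- sample was above every sample of the other populations, and every 4 week MAC-1+ sample was below all others. In SS MAC-1- HSCs the counts were 10780, 9744 and 18810, and in SS MAC-1low HSCs 10420, 4487 and 6592, so that both SS populations overlapped with each other and with 4 week MAC-1low HSCs after scaling. In order, the mean level was 4957 CPM ± 1310 (SD, n = 3) in 4 week MAC-1-, 755 ± 229 in SS MAC-1-, 545 ± 226 (n = 4) in 4 week MAC-1low, 378 ± 150 in SS MAC-1low and 130 ± 26.0 in 4 week MAC-1+ HSCs.

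The level of *Pf4* in 4 week MAC-1- HSCs stood out among all genes. It took 0.577%, 0.436% and 0.365% of all counts in these 3 samples and ranked 8th, 12th and 15th of all genes by count. In 4 week MAC-1+ samples it took 0.0109% to 0.0174% and its rank lay between 1187 and 1850. In SS samples the share ran from 0.0277% to 0.0892%. The 10 genes together held 0.418% to 0.628% of the counts in 4 week MAC-1- samples, of which *Pf4* made up 87.3% to 93.1%, and 0.0267% to 0.0378% in 4 week MAC-1+ samples, of which it made up 32.4% to 47.2%.

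**Figure D1:**
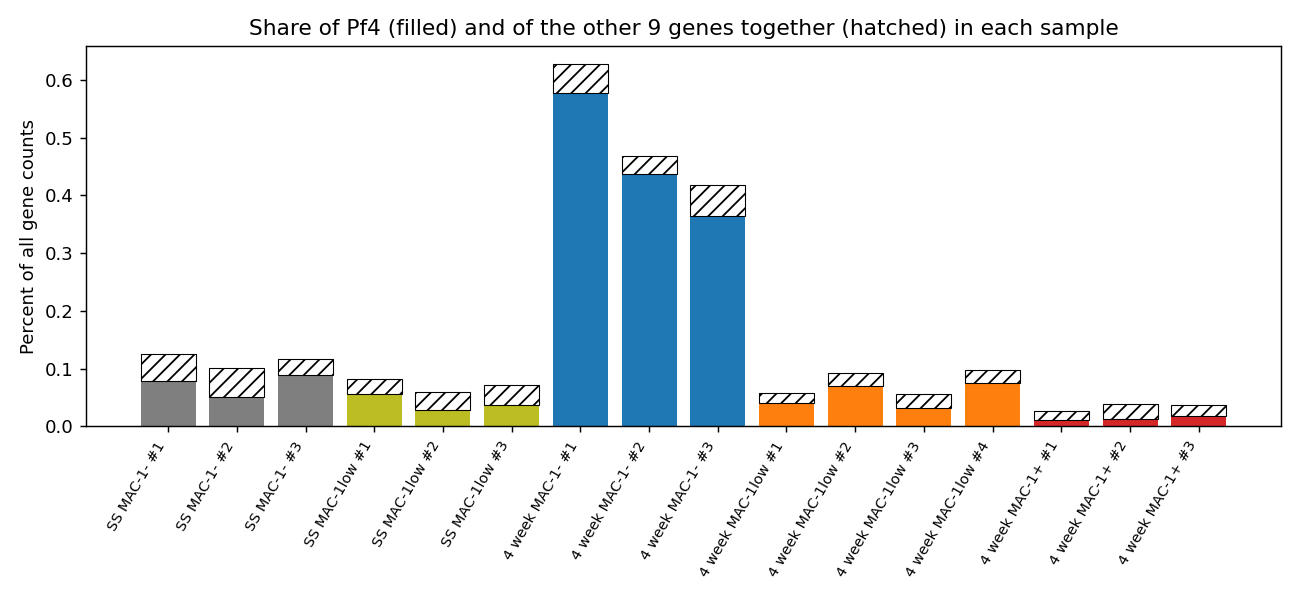
Percent of all gene counts in each of the 16 samples (bars, axis from 0), split into *Pf4* (filled, colored by population) and the other 9 genes together (hatched). The 4 week MAC-1- samples reach 0.418% to 0.628% in total, while every other sample stays at or below 0.126%.

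*Ppbp* encodes pro-platelet basic protein, the precursor of a neutrophil-attracting chemokine (CXCL7). At 4 weeks, its counts were 1184, 1167 and 1233 in MAC-1-, 207, 449, 88 and 379 in MAC-1low and 268, 295 and 488 in MAC-1+ samples. In SS HSCs it was found in single samples, with 0, 542 and 0 counts in SS MAC-1- and 454, 0 and 1 in SS MAC-1low. All 10 samples from 4 weeks thus had *Ppbp* counts, and those of MAC-1- lay above all others at 64.3 CPM ± 17.4 (SD, n = 3). The means of the 4 other populations, 16.9 in 4 week MAC-1+, 13.01 in 4 week MAC-1low, 9.47 in SS MAC-1- and 7.91 CPM in SS MAC-1low, did not differ beyond the spread of their samples. *Ppbp* did not keep a fixed ratio to its neighbor: *Pf4* had 50.7 to 107 counts for each *Ppbp* count in 4 week MAC-1- samples and 6.1 to 9.17 in 4 week MAC-1+ samples.

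*Clu* encodes clusterin, a secreted chaperone that platelets also store. At 4 weeks, MAC-1- samples had 595, 300 and 652 counts, MAC-1low samples 6, 24, 157 and 45, and all 3 MAC-1+ samples 0. SS MAC-1- samples had 0, 638 and 151 counts and SS MAC-1low samples 1, 0 and 0. The 3 populations from 4 weeks thus did not overlap, and 4 week MAC-1+ and SS MAC-1low HSCs had next to none. With counting error alone, the 4 week MAC-1- mean of *Clu* was 196-fold above the floor of 3 counts in each MAC-1+ sample.

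*Thbs1* encodes thrombospondin 1, an adhesive glycoprotein released from alpha granules. It was low and patchy, and at 4 weeks its counts were 249, 156 and 41 in MAC-1-, 0, 85, 0 and 398 in MAC-1low and 0, 2 and 15 in MAC-1+ samples. SS MAC-1- samples had 0, 322 and 231 counts, and all SS MAC-1low samples had 0. Only the 4 week MAC-1- samples had counts throughout, and their mean of 8.01 CPM ± 6.82 (SD, n = 3) did not differ beyond the spread from the 9.57 ± 8.66 CPM (n = 3) of SS MAC-1- HSCs.

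*Mmrn1*, which encodes multimerin 1, a large alpha granule protein that binds factor V, showed another order. It was counted in all 16 samples, at 5150, 6514 and 4433 in SS MAC-1- and 3954, 3902 and 5575 in SS MAC-1low samples. At 4 weeks it had 4006, 2438 and 3575 counts in MAC-1-, 1446, 2028, 2279 and 4009 in MAC-1low and 1848, 1322 and 2485 in MAC-1+ samples. The mean level fell in the order SS MAC-1- (315 CPM ± 78.5, SD, n = 3), SS MAC-1low (237 ± 43.8), 4 week MAC-1- (187 ± 83.5), 4 week MAC-1low (112 ± 28.2, n = 4) and 4 week MAC-1+ (89.7 ± 7.81). No neighbors in that order were free of overlap, but both SS populations lay above 4 week MAC-1low and above 4 week MAC-1+ HSCs in every sample. *Pf4* had 1.15 to 4.24 counts for each *Mmrn1* count in SS samples, 17.5 to 51.2 in 4 week MAC-1- and 1.33 to 1.63 in 4 week MAC-1+ samples.

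*Selp*, which encodes the granule membrane receptor P-selectin, was the gene of the 10 with its highest mean in 4 week MAC-1+ HSCs. At 4 weeks, MAC-1+ samples had 1416, 2109 and 1420 counts, MAC-1- samples 767, 2096 and 830, and MAC-1low samples 801, 870, 1087 and 1556. SS MAC-1- samples had 234, 0 and 521 counts and SS MAC-1low samples 58, 0 and 19. All 10 samples from 4 weeks were above all 6 SS samples after scaling, while the 3 populations from 4 weeks overlapped, with means of 85.3 CPM ± 41.2 (SD, n = 3) in MAC-1+, 59.2 ± 17.5 (n = 3) in MAC-1- and 50.8 ± 8.22 (n = 4) in MAC-1low HSCs. The SS means were 14.6 ± 13.5 in MAC-1- and 1.34 ± 1.54 in MAC-1low HSCs (n = 3 each). *Selp* shares 186 and 438 exon bases with the genes Gm16587 and Gm16548 on the opposite strand. These had at most 132 and 372 counts in a sample, and without strand their reads cannot be told apart from those of *Selp* in the shared bases.

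*Treml1* encodes TLT-1, a receptor of the granule membrane. At 4 weeks, counts of 66, 331 and 526 were found in MAC-1-, 119, 206, 163 and 12 in MAC-1low and 0, 0 and 98 in MAC-1+ samples. SS MAC-1- samples had 252, 37 and 0 counts, and SS MAC-1low samples 7, 0 and 0. The 4 week MAC-1- samples lay above those of 4 week MAC-1+ and of SS MAC-1low, and overlapped with the other two populations.

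Of the tubulins, *Tubb1*, the beta tubulin of the marginal band of platelets, was not detectable at this depth beyond a single count in SS MAC-1low replicate 2. *Tuba8*, an alpha tubulin of few tissues, reached 1298, 1264 and 969 counts in MAC-1- samples at 4 weeks, and 0, 0 and 1 in MAC-1+ samples. The 4 week MAC-1low samples had 256, 571, 664 and 12 counts. These 3 populations did not overlap, and the ratio of the scaled counts of 4 week MAC-1- to those of 4 week MAC-1+ HSCs was 3730, with a 95% counting interval from 670 to 148000 because a single count stood in the lower group. SS samples were patchy, with 188, 1339 and 0 counts in MAC-1- and 20, 723 and 699 in MAC-1low HSCs. Tubulin genes resemble each other in sequence, so reads may have been split among them, and *Tuba8* shares 368 exon bases with Gm15856 on the other strand, which had at most 41 counts.

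*Mfsd2b* encodes the exporter of sphingosine 1-phosphate in red cells and platelets, a lipid that is released when platelets are activated. At 4 weeks, its counts were 719, 1472 and 1313 in MAC-1-, 8, 489, 39 and 105 in MAC-1low and 3, 22 and 8 in MAC-1+ samples. In SS samples it had 720, 255 and 565 counts in MAC-1- and 428, 461 and 9 in MAC-1low HSCs. The 4 week MAC-1+ samples lay below all 4 week MAC-1- and all SS MAC-1- samples, with a mean of 0.614 CPM ± 0.671 against 60.1 ± 17.5 and 31.7 ± 19.9 CPM (SD, n = 3 each).

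**Figure D2:**
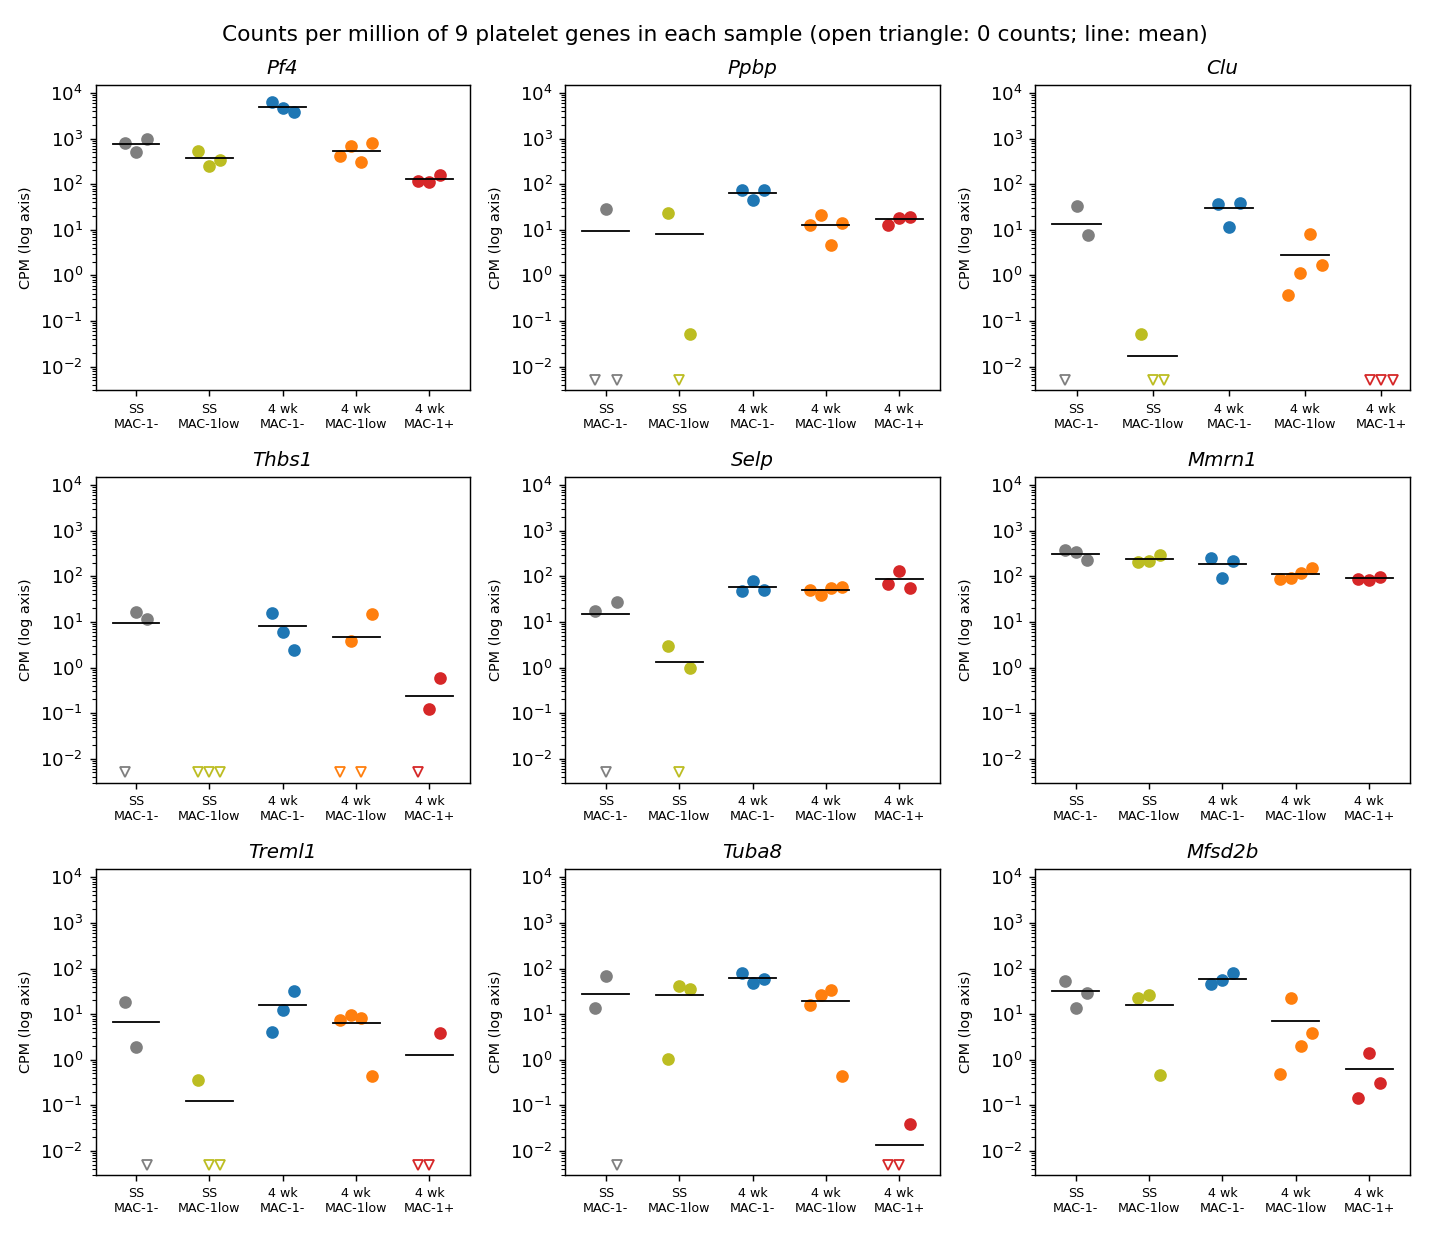
CPM (log axis) of the 9 genes that passed the filter, 1 panel per gene, with 1 point per sample, open triangles for samples with 0 counts and lines at the population means (n = 3, or 4 in 4 week MAC-1low). *Pf4* at 3776 to 6366 CPM in 4 week MAC-1- HSCs stands above all other points. Across populations, *Selp* alone has its own highest mean in 4 week MAC-1+ HSCs, where its samples overlap with the other 4 week populations.

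Between genes, levels were compared per kilobase of exon (GENCODE M21). In 4 week MAC-1- HSCs the mean was 6875 CPM per kb for *Pf4*, 59.4 for *Ppbp*, 31.8 for *Mmrn1*, 27.7 for *Tuba8*, 13.4 for *Selp*, 11.7 for *Mfsd2b*, 11.5 for *Treml1*, 8.54 for *Clu* and 1.32 for *Thbs1*. In 4 week MAC-1+ HSCs *Pf4* was at 180 CPM per kb, *Selp* at 19.3, *Ppbp* at 15.6 and *Mmrn1* at 15.3, and each of the other 6 genes was below 1. *Pf4* therefore remained the highest of the 10 per length in both populations, while *Selp* had 4 genes above it in 4 week MAC-1- HSCs and *Pf4* alone in the other, where *Selp*, *Ppbp* and *Mmrn1* did not differ beyond the spread (SD of *Selp* 9.34).

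Comparing MAC-1+ with MAC-1- HSCs at 4 weeks asks how the platelet genes differ between the regenerating HSCs with and without MAC-1. Of the 9 genes tested, 8 had lower and 1, *Selp*, had higher fitted values in 4 week MAC-1+ HSCs, and the median log2 fold change was -5.01, against 0.07 over all genes tested. That median is the value of *Thbs1* (SE 2.86), and setting *Clu* to its floor could not move it. Called were 4 genes, all lower, where 2.47% of all 13661 genes were called in either direction. These were *Pf4* (log2 fold change -5.25, SE 0.43, which is 38.2-fold), *Clu* (-12.17, SE 2.82, a fitted value against samples at 0), *Tuba8* (-11.49, SE 2.63) and *Mfsd2b* (-6.62, SE 1.66). Without any 1 of the 4 week MAC-1+ samples, 1 gene was called, *Pf4*. These include replicate 3 with its neutrophil RNA, without which *Pf4* had a log2 fold change of -5.40. Without 4 week MAC-1- replicate 1 or 3, 2 were called. Without 4 week MAC-1- replicate 2 the count stayed at 4, but with *Mmrn1* (-1.38) in place of *Mfsd2b*. *Mfsd2b* thus lost its call without any 1 of the samples compared. With all samples, the genes not called had log2 fold changes of -5.01 (SE 2.86, *Thbs1*), -3.63 (SE 2.49, *Treml1*), -1.93 (SE 2.09, *Ppbp*), -1.06 (SE 0.33, *Mmrn1*) and 0.53 (SE 1.30, *Selp*). In 7 of the 9 genes all 4 week MAC-1+ samples were below all 4 week MAC-1- samples, and in none above, where 21.7% of all genes were without overlap in either direction. Nothing is read from these counts, since the genes were chosen with this contrast known.

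In 4 week MAC-1low HSCs the mean lay between those of MAC-1+ and MAC-1- for 7 of the 9 genes, the exceptions being *Ppbp* and *Selp*. Against MAC-1- HSCs all 9 genes had lower fitted values, with a median log2 fold change of -1.71 (0.05 over all genes), and 1 gene was called, *Pf4* (-3.19, SE 0.35, which is 9.1-fold), beside 0.183% of all genes. *Clu* was at -3.38 (SE 1.68) and *Mfsd2b* at -3.05 (SE 1.25). For MAC-1+ against MAC-1low HSCs at 4 weeks, edgeR called 0 of the 9 genes and 0% of all genes, although 4 of the 9 and 936 of all had an unadjusted p below 0.05. DESeq2 called 4 of them there, *Pf4*, *Clu*, *Tuba8* and *Mfsd2b*, all lower in MAC-1+, beside 2.52% of the genes it tested. The *Pf4* value was -2.07 (SE 0.36) in edgeR.

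The step from SS MAC-1- to 4 week MAC-1- HSCs was large for *Pf4*, at a log2 fold change of 2.71 (SE 0.38, which is 6.56-fold higher), the only gene of the 9 called, beside 0.381% of all genes. *Ppbp* at 2.76 (SE 2.16) and *Selp* at 2.02 (SE 1.35) had estimates of like size with wider errors, while *Mmrn1* was at -0.76 (SE 0.33) and *Thbs1* at -0.26 (SE 2.41). These comparisons share the 4 week MAC-1- samples with those above, so that a high value there enters each of them.

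**Figure D3:**
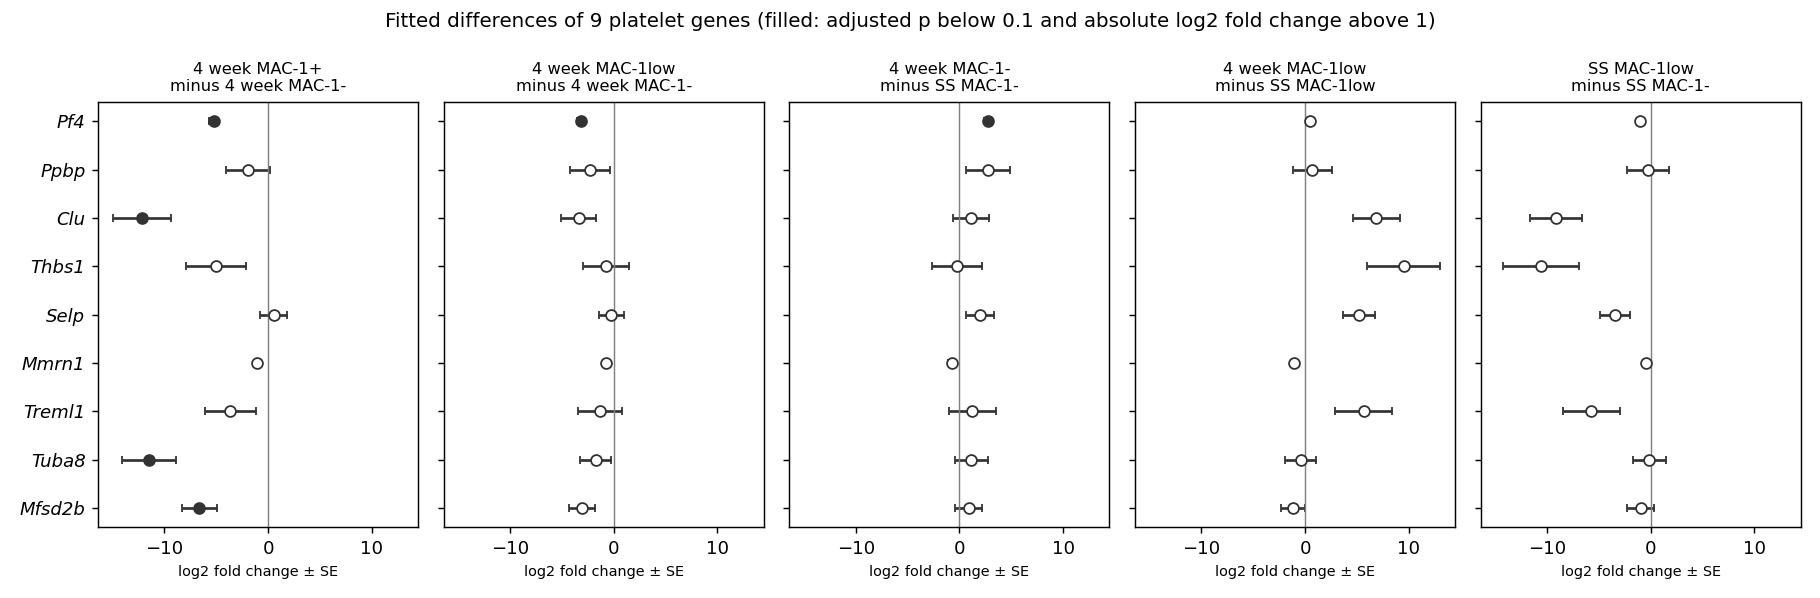
Fitted log2 fold change (edgeR) of the 9 genes in 5 comparisons, with an SE derived from the test statistic and filled points for called genes. *Pf4* is filled in the 3 comparisons that hold the 4 week MAC-1- samples, and its errors, like those of *Mmrn1*, are narrower than those of the 7 other genes.

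The comparison of SS MAC-1low with SS MAC-1- HSCs sets the SS samples against each other, but the filter and the spread of the model came from all 16 samples. With the filter applied to the SS samples alone, 5 of the 9 genes were left, while *Ppbp*, *Clu*, *Thbs1* and *Treml1* passed only through the 4 week samples, so that their values are not independent of the choice of genes. The fitted value was lower in SS MAC-1low HSCs for all 9 genes (median log2 fold change -0.998, against 0 over all genes), but edgeR called 0 of them, beside 0.0146% of all genes, with 4 of the 9 and 1278 of all at an unadjusted p below 0.05. The fitted values of *Thbs1* (log2 fold change -10.56, SE 3.67, adjusted p = 0.513, edgeR with Benjamini-Hochberg adjustment) and *Clu* (-9.16, SE 2.51, adjusted p = 0.409) were set by samples at or near 0. With counting error alone, the SS MAC-1- mean of *Thbs1* was 60-fold above the floor of 3 counts in each SS MAC-1low sample. The ratio of the scaled *Clu* counts was 853, with a 95% counting interval from 153 to 33700. Both rest on SS MAC-1- replicates 2 and 3, since replicate 1 had 0 counts of either, like the SS MAC-1low samples but for 1 count. Neither value is thus a lower limit on the difference between the populations. DESeq2, also fitted over all 16 samples, called these 2 genes, which the edgeR filter on SS samples alone did not keep, at an adjusted p of 0.0146 for *Thbs1* and of 0.00034 for *Clu*, in a comparison where it called 6.46% of the genes tested. Over the alternatives the adjusted p ran from 0.0146 to 0.711 for *Thbs1* and from 0.00034 to 0.688 for *Clu*. *Pf4* was at -0.998 (SE 0.36, adjusted p = 0.513) and *Selp* at -3.44 (SE 1.44, adjusted p = 0.521) in edgeR. *Ppbp* (-0.26, SE 2.02) and *Tuba8* (-0.12, SE 1.60) had no settled direction, with signs that turned when single samples were left out.

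4 week MAC-1low and SS MAC-1low HSCs were compared to see how the same gate differs after transplantation. *Selp* had a higher fitted value at 4 weeks, with a log2 fold change of 5.24 (SE 1.54, adjusted p = 0.372, edgeR). *Mmrn1* had a lower one (-1.08, SE 0.31, adjusted p = 0.345, edgeR). *Clu* was at 6.88 (SE 2.28, adjusted p = 0.441) and *Thbs1* at 9.53 (SE 3.51, adjusted p = 0.492), both from SS MAC-1low samples with 1 count or none, and *Thbs1* passed the filter only through other populations. *Selp* had 58, 0 and 19 counts in SS MAC-1low samples. Of these 2 populations, *Clu* and *Selp* passed the filter only through 4 week MAC-1low, where they were high. The adjusted p-values of *Selp*, *Clu* and *Thbs1* are therefore a description. *Pf4* did not pass the test at 0.53 (SE 0.34, adjusted p = 0.711). edgeR called 0 of the 9 genes, beside 0.0439% of all genes, with 4 of the 9 and 1214 of all at an unadjusted p below 0.05. DESeq2 called *Selp*, *Mmrn1*, *Clu* and *Thbs1* in the same directions, with adjusted p-values of 0.00306, 0.0433, 0.0149 and 0.0317, where it called 3.94% of the genes tested. DESeq2 gave the lowest adjusted p of all alternatives for these 4 genes, and the highest were 0.652, 0.636, 0.728 and 0.814.

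Whether the MAC-1low to MAC-1- difference itself differed between 4 weeks and SS was fitted as an interaction. It contains the 4 week difference by which *Pf4* was chosen, so that its values are a description as well. The value was -2.19 (SE 0.49) on the log2 scale for *Pf4*, a larger deficit of MAC-1low HSCs at 4 weeks, and 3.22 (SE 1.86) for *Selp*. edgeR called 0 of the 9 genes, beside 0.0586% of all genes, with 3 of the 9 and 1192 of all at an unadjusted p below 0.05, and DESeq2 called *Pf4* alone, beside 5.2% of the genes tested.

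**Figure D4:**
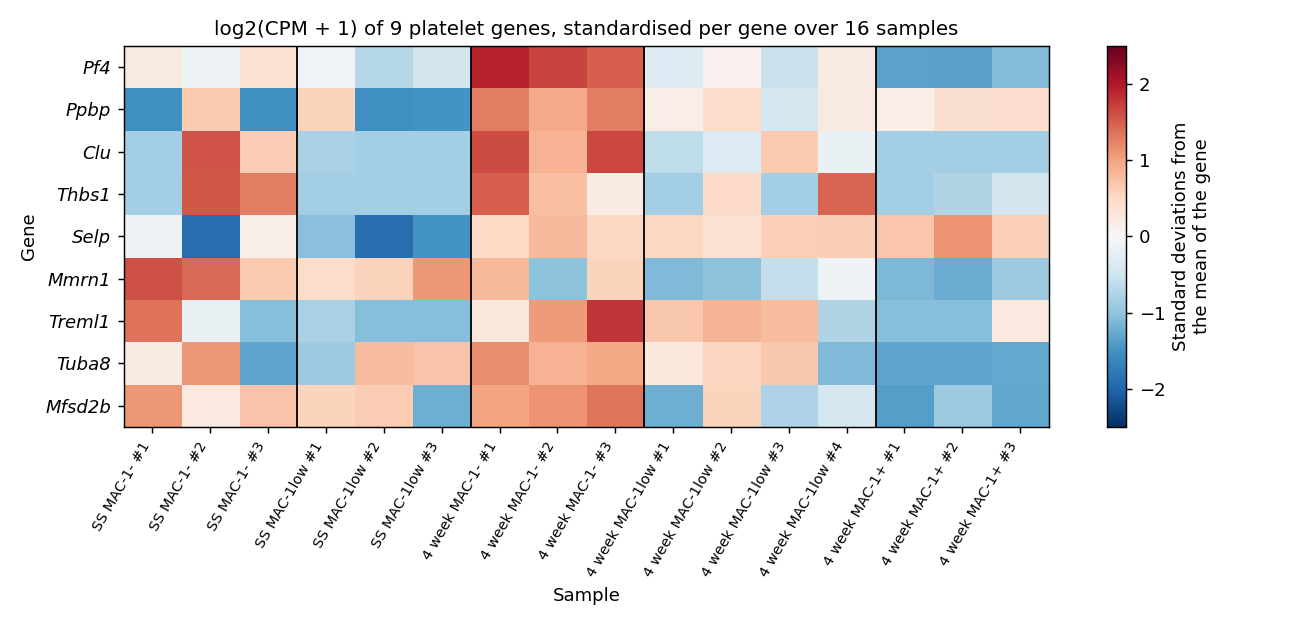
log2(CPM + 1) of the 9 genes in the 16 samples, standardised per gene to its mean and SD (color scale in SDs). The 4 week MAC-1- columns are high for *Pf4*, *Ppbp*, *Clu*, *Tuba8* and *Mfsd2b*, while *Selp* separates 4 week from SS samples. The means of *Mmrn1* are highest in the SS populations, which overlap with 4 week MAC-1- samples.

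The 9 genes did not vary as one over the 16 samples. Pearson's r of the log2 CPM between pairs, given without a test and over samples that share libraries, ran from -0.63 (*Selp* with *Mmrn1*) to 0.76 (*Pf4* with *Mfsd2b*). *Clu* with *Thbs1* was at 0.758 and *Pf4* with *Clu* at 0.741, while the neighbors *Pf4* and *Ppbp* were at 0.276. The mean of the 9 standardised profiles was 0.766 to 1.06 in 4 week MAC-1- samples and -0.868 to -0.478 in 4 week MAC-1+ samples. The 10 genes most like that mean, of 11061 other genes with a mean of at least 50 counts, were *Adk* (r = 0.887), *Rap1b*, *Erh*, *Timm8a1*, *Pdcd4*, *Rpa3*, *Tmsb4x*, *Ndufa1*, *Slc25a5* and *Mdh2* (r = 0.827). All 10 had their highest mean in 4 week MAC-1- HSCs, from 85.8 CPM for *Timm8a1* to 8851 CPM for *Tmsb4x*. That follows from their choice, since the profile they were picked by is itself highest there.

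Other platelet genes, from lists that were also chosen with earlier results of these data known, are given by their counts for MAC-1+ against MAC-1- HSCs at 4 weeks. Of 17 tested genes for platelet surface receptors, 11 had lower fitted values in 4 week MAC-1+ HSCs (median log2 fold change -0.99). Called were 5 of the 17, all lower, where 2.47% of all genes were called in either direction. These were the integrin subunit *Itga2b*, *Gp1bb* of the von Willebrand factor receptor, the ADP receptor *P2ry1* and the thrombin receptors *F2r* and *F2rl2*. *Itga2b* was at 53.8 CPM ± 7.14 (SD, n = 3) in 4 week MAC-1- HSCs and at 4.09 ± 2.49 in those with MAC-1 (log2 fold change -3.71, SE 0.71), and *Gp1bb* at 120 ± 20.7 CPM in the first and at 0 counts in all samples of the other. Of 15 tested genes for other granule cargo, 1 was called, *Plek*, which encodes pleckstrin, a kinase substrate of platelets rather than a secreted protein (-4.70, SE 0.72, list median -0.93).

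The machinery for granules and cytoskeleton had no called gene in that comparison. This held for 19 genes of granule biogenesis (median log2 fold change -0.28), 6 of granule secretion (-0.52), 11 tubulin and microtubule genes (0.13), 20 actin cytoskeleton genes (-0.11) and 7 genes that handle sphingosine 1-phosphate (0.36), beside a median of 0.07 over all genes. Summed CPM of the tubulin and microtubule genes was 794 to 953 in 4 week MAC-1- and 778 to 1105 in 4 week MAC-1+ samples. Of 17 tested transcription factors of megakaryocytes, 8 had lower fitted values in 4 week MAC-1+ HSCs, and the median log2 fold change was 0.04. Called were 3 of the 17, all lower, with *Gata1* and *Gfi1b* among them, beside 2.47% of all genes in either direction. *Gata1*, the master regulator of megakaryocytes and red cells, was at 39.6 CPM ± 12.4 (SD, n = 3) in 4 week MAC-1- HSCs and at 0 counts in all 4 week MAC-1+ samples. *Gfi1b*, a repressor in the same lineages, went from 109 ± 55.1 to 15.5 ± 1.34 CPM (n = 3 each). *Myb* was called lower in 4 week MAC-1- than in SS MAC-1- HSCs (log2 fold change -1.10, SE 0.24).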

How the data were processed

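RNA of HSCs from 16 samples of 5 populations was amplified with SMART-Seq v4 and made into Nextera XT libraries, without molecular identifiers. The authors deposited raw counts of reads per gene, from an nf-core workflow that aligns with STAR, while build, annotation and counting program are not given. Tests were run with edgeR 4.0.16 under R 4.3.3 (TMM factors, filter on low counts, robust quasi-likelihood test, 1 model with a mean per population, Benjamini-Hochberg adjustment over all 13661 genes tested). The thresholds were those of the study. DESeq2 1.42.0 and limma 3.58.1 (voom with sample weights) were alternatives, as were DESeq2 size factors, no filter, only the groups compared, a replicate block and leaving out each sample. Log2 CPM for profiles used a prior count of 2. Coordinates and lengths came from GENCODE M21 and promoters from RefSeq, read in Python 3.11.15, and plots used matplotlib 3.10.9. The genes, lists and tests were chosen with earlier results of these data known. Named beside the 10 genes were list genes called in any comparison (10 genes, of which 1 is not reported here), the 10 genes most like the mean profile, markers of other cells and both MAC-1 subunits.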

Additional observations from a re-analysis of the deposited data

Results flagged for a closer look

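*Mfsd2b* in 4 week MAC-1low replicate 2 was at 22.5 CPM, far above the other 3 samples of that population, whose values were 0.490, 2.01 and 3.93 CPM. It is the 1 sample set apart by Dixon's test on unlogged CPM among the 9 genes tested in this population. Chance sets apart a sample in about 1 of 20 groups if values are normally distributed. Whether CPM are so distributed was not tested, and the test was not run on a log scale. Without that sample the mean of *Mfsd2b* in 4 week MAC-1low HSCs would rest on 8, 39 and 105 counts.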

How the results depend on the processing

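Among the counts of called genes, limma-voom gave 2 for 4 week MAC-1low against 4 week MAC-1- in place of 1. DESeq2 gave 4 for 4 week MAC-1+ against 4 week MAC-1low, 4 for 4 week MAC-1low against SS MAC-1low, 2 for SS MAC-1low against SS MAC-1- and 1 for the interaction, in place of 0 each. Leaving out each sample gave 1 to 4 for 4 week MAC-1+ against 4 week MAC-1-. The replicate block gave 3 in place of 4 in that comparison, without *Clu*, and the same count in each of the other 6, and no filter on low counts also gave 3 there, without *Tuba8*. With only the groups compared, 5 of the 9 genes were tested in SS MAC-1low against SS MAC-1- and 8 in 4 week MAC-1low against SS MAC-1low. Samples of the same number did not deviate together, with a correlation of -0.0444 to 0.0908 over 30 pairs, so the numbers were not taken as pairs. The names of the count columns run in another series, where 4 week MAC-1- replicate 2 follows MAC-1+ and MAC-1low replicate 3. In that series, 4 week MAC-1- replicate 3 follows MAC-1low replicate 4. Pairs by that series were not tested, and neither the correlation nor the replicate block covers them.

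The sign turned for *Ppbp* in SS MAC-1low against SS MAC-1- HSCs (0.015 with limma-voom, 0.0595 with the replicate block, -8.20 to 10.28 when samples were left out) and for *Tuba8* (1.20 with limma-voom, -0.70 to 1.91 when samples were left out). For *Tuba8* in 4 week MAC-1low against SS MAC-1low HSCs it was 0.31 with the replicate block and -1.01 to 0.0365 when samples were left out. The cause was not tested. Of 633 refitted fold changes, 600 kept their sign and their side of the threshold, 16 lost and 7 gained a call with the same sign, and 10 turned. DESeq2 gave no adjusted p for *Ppbp* in these comparisons. Counts near 0 in whole populations limit how precisely *Clu*, *Thbs1*, *Treml1* and *Tubb1* can be described.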
